A study of Mus musculus with 6 samples.

Results

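The S100 proteins are small calcium-binding proteins, and 10 of their genes were followed here by name: S100a1, S100a3, S100a4, S100a6, S100a8, S100a9, S100a10, S100a11, S100a13 and S100a16. The genes were picked with earlier results of these data known, but the rule for a probe was its gene symbol and no measured value, and they make up 10 of the 21859 genes tested. The 10 genes had 12 probes, all of which passed the filter on dim signals, and each gene's brightest probe was well above background on all 6 arrays. Myeloid-derived suppressor cells (MDSCs) are immature myeloid cells that restrain T cells. All cultures started from bone marrow of female C57BL/6J mice of 6 to 8 weeks and received the growth factor GM-CSF. MDSC (conv.) came from whole bone marrow after 4 days at 40 ng/mL GM-CSF, and a label of this group also names dendritic cells. For 6G- BM-MDSC, Ly-6G+ cells were first taken out of the marrow with magnetic beads, and the culture was otherwise that of MDSC (conv.). Dendritic cells (DCs) grew from marrow over 8 days at a GM-CSF concentration of 20 ng/mL, in non-treated dishes where both MDSC groups had tissue-culture-treated ones, so that cell type, dose, culture time and dish differ together. Each group had 2 one-colour arrays, and both MDSC groups lay in the first row of the slide and DCs in the second, so that the row and the difference from DCs cannot be told apart. The labels number the replicates without naming separate cultures or animals, so that the spread behind each p-value is that between these samples and may be technical. Arrays of 1 group correlated at 0.9947 to 0.9961 across genes, which are not independent replicates, arrays of both MDSC groups at 0.9931 to 0.9944, and arrays of MDSCs and DCs at 0.9712 to 0.976.

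Most S100 proteins form dimers, bind calcium through a pair of EF-hand loops and then expose a surface for partner proteins. S100a8 and S100a9 together form calprotectin, which is abundant in the cytosol of neutrophils and monocytes, binds zinc and manganese, and acts outside the cell on the receptors Tlr4 and Ager. S100a10 is the partner of annexin A2, S100a6 is also known as calcyclin, S100a4 binds non-muscle myosin, and S100a13 takes part in the release of proteins that lack a signal peptide. Many of these genes lie together on chromosome 3, in the order S100a1, S100a13, S100a16, S100a3, S100a4, S100a6, S100a8 and S100a9, with S100a11 and S100a10 further along.

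The 60-base probes of S100a1, S100a6 and S100a8 are shown because they lie over the same part of the protein family and belong to 3 genes that differed between MDSCs and DCs. Capitals mark ACTTCNAGGAGT (N is any base), the longest stretch that the 3 share with at most 1 differing base, searched on both strands, which codes for the end of the second EF-hand loop.
S100a1 (mm9, chr3:90315191-90315250, minus strand): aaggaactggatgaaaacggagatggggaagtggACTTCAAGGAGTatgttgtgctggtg
S100a6 (mm9, chr3:90418160-90418219, plus strand): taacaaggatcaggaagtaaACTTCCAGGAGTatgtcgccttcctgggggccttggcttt
S100a8 (mm9, chr3:90473778-90473837, plus strand): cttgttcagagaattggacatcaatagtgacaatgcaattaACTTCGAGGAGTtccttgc
These letters occurred in 7 of 56605 probes (0.0124%), of which 4 belong to the S100 genes S100a1, S100a5, S100a6 and S100a8. Among the 12 probes, the longest run of identical bases in probes of different S100 genes was 10, between S100a1 and S100a6. Those genes differed in opposite directions between MDSCs and DCs, as described below.

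Against DCs, the S100 genes did not move as a block. In MDSC (conv.), S100a8, S100a6 and S100a16 were higher and S100a1, S100a10 and S100a11 were lower, whereas S100a9, S100a4, S100a13 and S100a3 did not pass the test. The differences lay between -0.82 and 0.87 on the log2 scale, so that each was under 2-fold. By the methods' t-test, 9 of the 10 genes in MDSC (conv.) and 6 for 6G- BM-MDSC had an unadjusted p under 0.05, the methods' threshold. Of all 21859 genes, 7074 and 7488 did. After Benjamini-Hochberg adjustment, 0 of the 10 passed in either comparison. Over all genes, 4 were then higher and 3 lower in MDSC (conv.), and 41 and 25 in 6G- BM-MDSC. By limma, 3 of 10 genes were higher in MDSC (conv.), where 13.4% of all genes were, and 3 of 10 were lower, where 15.8% of all genes were (limma, Benjamini-Hochberg adjusted p under 0.05). In 6G- BM-MDSC, the same 3 genes were higher, where 15.0% of all genes were, and S100a1 and S100a10 were lower, where 17.8% of all genes were. Both comparisons share the DC arrays. The median difference of the S100 genes from DCs was -0.19 for MDSC (conv.) and 0.01 for 6G- BM-MDSC, beside -0.031 and -0.036 over all genes. The median size of a difference, regardless of its direction, was 0.46 and 0.30 for the S100 genes and 0.27 and 0.29 over all genes.

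**Figure D1:**
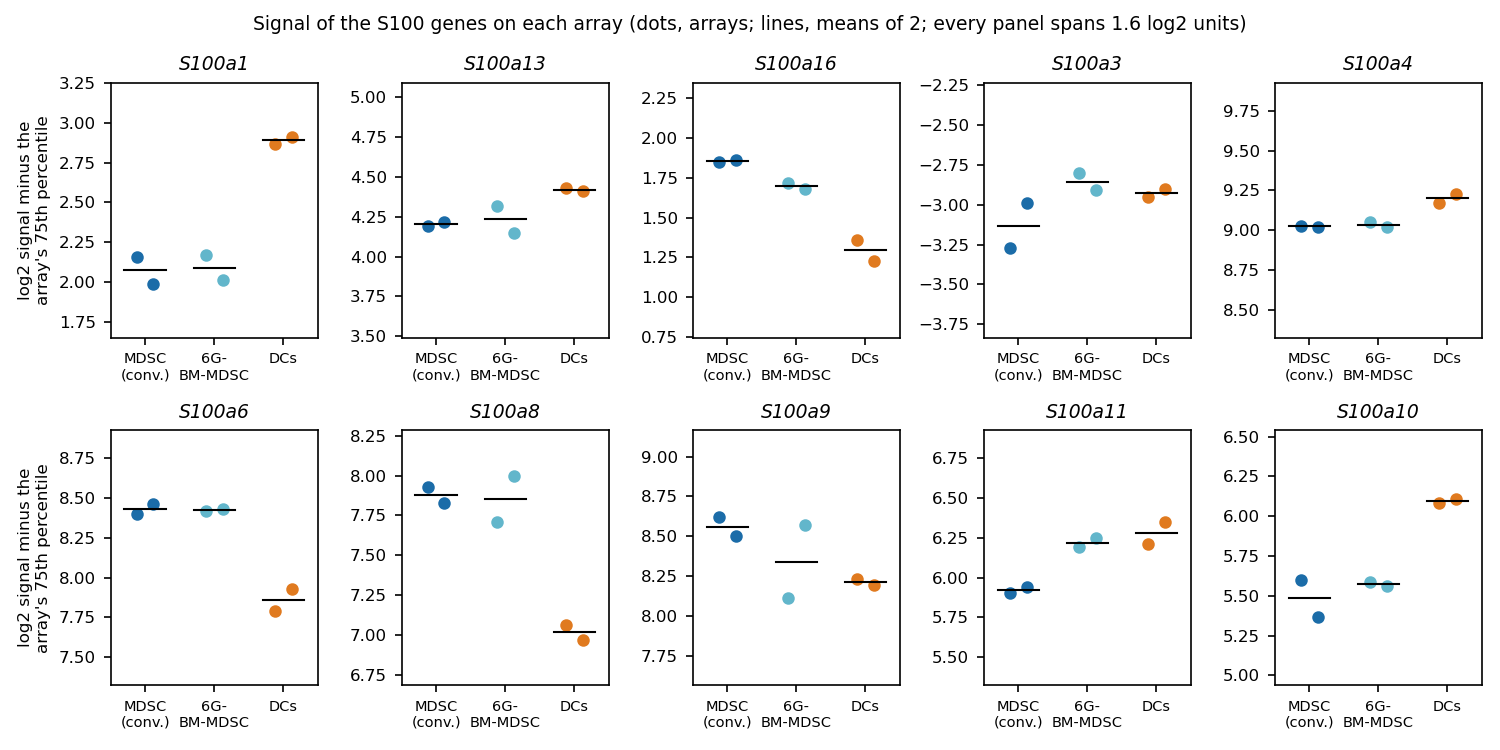
Signal of each S100 gene on each array, as log2 of the intensity minus the 75th percentile of the array (y axis), by group (x axis). Dots are arrays and lines are means of 2 arrays, and every panel spans the same range on its y axis. DC arrays lie below all MDSC arrays for S100a8, S100a6 and S100a16 and above them for S100a1, S100a10, S100a4 and S100a13. S100a4 and S100a13 did not pass the test.

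**Figure D2:**
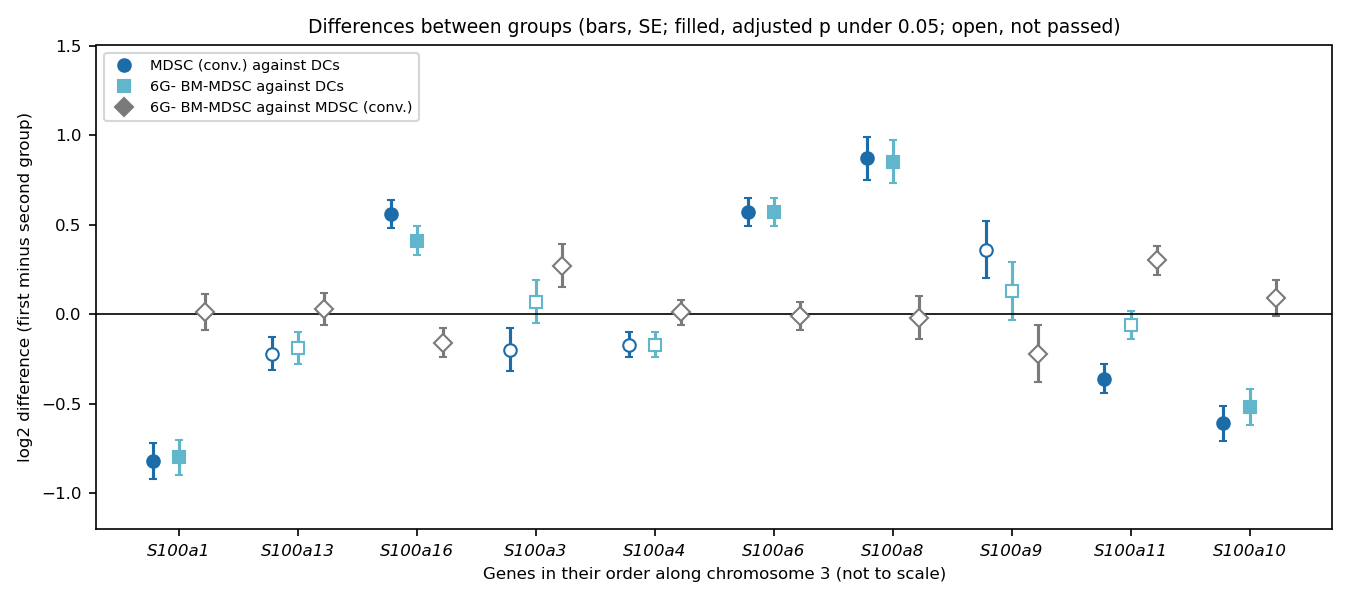
Log2 difference between groups for each S100 gene (y axis), with bars of 1 SE, in the order of the genes along chromosome 3 (x axis). Filled symbols passed the test and open symbols did not: S100a8 reached 0.87 and 0.85 against DCs and S100a1 reached -0.82 and -0.80, and no gene passed between both MDSC groups.

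S100a8, which encodes the smaller subunit of calprotectin, had the largest positive difference of the 10 genes. With the 75th percentile of each array set to 0, its log2 signal was 7.93 and 7.83 for MDSC (conv.), 7.71 and 8.0 for 6G- BM-MDSC and 7.06 and 6.97 for DCs. All 4 MDSC arrays lay above both DC arrays, and both MDSC groups overlapped. S100a8 was 1.82-fold higher in MDSC (conv.) than in DCs, with a log2 difference of 0.87 (SE 0.12, n = 2 arrays per group; limma, adjusted p = 0.00833), and 1.80-fold higher in 6G- BM-MDSC (log2 difference 0.85, SE 0.12; limma, adjusted p = 0.00832). Without MDSC (conv.) replicate 2, the first of these had a limma adjusted p of 0.0506. S100a8 was well above background in DCs too, at 129 times the 75th percentile of the arrays.

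S100a9, which encodes the other subunit, did not pass in any comparison. Its log2 signal was 8.62 and 8.50 for MDSC (conv.), 8.11 and 8.57 for 6G- BM-MDSC and 8.23 and 8.19 for DCs. Both MDSC (conv.) arrays lay above the DC arrays, whereas 1 array of 6G- BM-MDSC lay below them and the other above. The log2 difference from DCs was 0.36 in MDSC (conv.) (SE 0.16, 95% interval -0.07 to 0.78; limma, adjusted p = 0.168) and 0.13 in 6G- BM-MDSC (SE 0.16, 95% interval -0.29 to 0.55; limma, adjusted p = 0.566). These intervals are not adjusted for the number of genes.

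Because S100a8 passed and its partner did not, the difference between both genes was itself compared, a choice made after their values were seen. On each array, the log2 signal of S100a8 minus that of S100a9 was -0.69 and -0.67 for MDSC (conv.), -0.40 and -0.56 for 6G- BM-MDSC and -1.17 and -1.22 for DCs. The sign of these values has no meaning of its own, since each probe has its own brightness. Where signal is proportional to RNA, that brightness cancels from their change between groups. A scanner can compress bright signals, and whether this altered the change was not tested. All 4 MDSC arrays lay above both DC arrays, and the mean was 0.61 higher in MDSCs. The exact two-sided permutation test over arrays gave p = 0.0667 (adjusted over 2 such pairs, p = 0.0667), which is the smallest value that 15 arrangements of 4 against 2 arrays allow, so that this design could not pass 0.05.

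**Figure D3:**
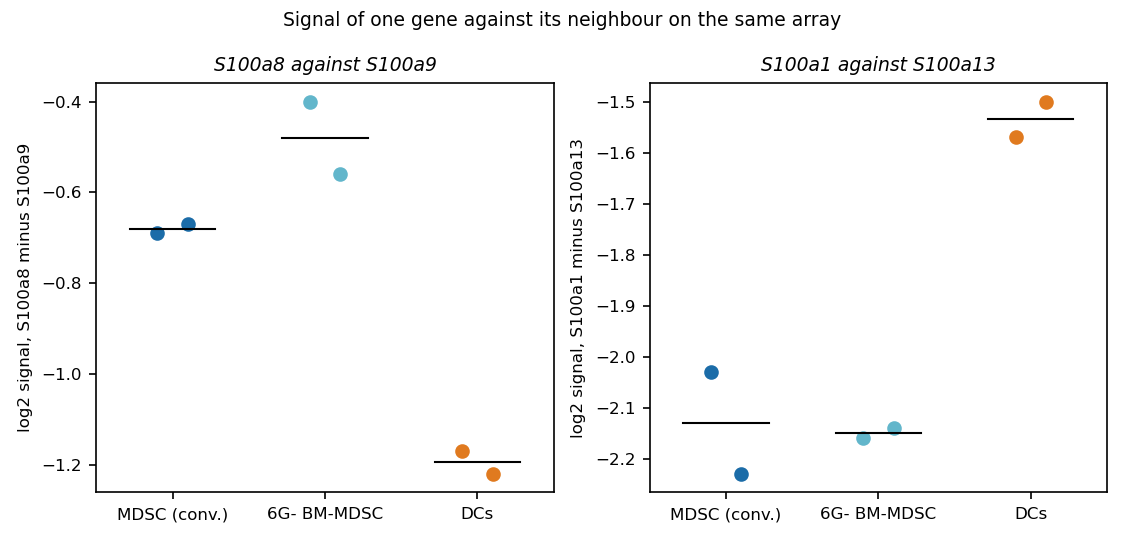
Log2 signal of S100a8 minus that of S100a9 and of S100a1 minus that of S100a13 on the same array (y axes), by group (x axes). Dots are arrays and lines are means of 2 arrays. Against S100a9, S100a8 lies at -0.69 to -0.40 on MDSC arrays and at -1.22 and -1.17 on DC arrays; against S100a13, S100a1 lies at -2.23 to -2.03 and at -1.57 and -1.50.

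Markers of neutrophils, which carry much calprotectin, moved in the same direction by more. Of 15 neutrophil markers, all well above background in every group, 14 exceeded DCs in either MDSC group, where 13.4% and 15.0% of all genes did. The median log2 differences of these markers were 4.15 and 3.85. Their summed signal, in multiples of the 75th percentile, was 1500 to 1530 in MDSC (conv.), 1270 to 1360 in 6G- BM-MDSC and 201 to 211 in DCs. Among them, Ly6g had a log2 difference of 4.02 (SE 0.11) and Mpo, the granule enzyme myeloperoxidase, one of 4.62 (SE 0.09) in MDSC (conv.) (limma, adjusted p = 0.000204 for each), and Csf3r, the receptor of G-CSF, one of -0.06 (limma, adjusted p = 0.647). Among 10 monocyte markers, MDSC (conv.) had 4 above and 2 below DCs, where 13.4% and 15.8% of all genes were. In 6G- BM-MDSC, 5 were above and 1 below, where 15.0% and 17.8% of all genes were. The summed signal of the monocyte markers was 715 to 751 in MDSC (conv.), 644 to 708 in 6G- BM-MDSC and 331 to 384 in DCs. The part of these cell types in the S100a8 difference was not tested. In RNA from a whole culture, fewer cells of a type and less RNA per cell cannot be told apart.

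The DC arrays carried most markers of their label, and macrophage markers too. Of 15 dendritic cell markers, 13 were lower in MDSC (conv.) than in DCs and 13 in 6G- BM-MDSC, where 15.8% and 17.8% of all genes were. In the same order, 0 and 1 were higher, where 13.4% and 15.0% of all genes were. The summed signal of the dendritic cell markers was 1010 to 1020, 962 to 1050 and 1720 to 1770 in MDSC (conv.), 6G- BM-MDSC and DCs. All 15 were well above background in both MDSC groups. Of 9 tested macrophage markers, 5 and 6 were lower in both MDSC groups, and 0 and 1 higher. The summed signal of the macrophage markers was 105 to 112, 107 to 111 and 165 to 184 in the same order. Markers of basophils and mast cells were higher than in DCs (7 of 7 in each MDSC group), as were those of megakaryocytes (4 of 4).

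S100a8 gave a bright probe, and a scanner can compress bright signals. The highest mean spot signal of any of the 10 genes was 48.8% of the saturation limit, and no spot was saturated. Of 111 other genes with signals at least as high as S100a8 on both MDSC (conv.) arrays, 16 passed against DCs. These were 7 higher and 9 lower, where 13.4% and 15.8% of all genes were. The median log2 difference over the 111 genes was -0.08. Of the 111 genes, 6 had a difference at least as large as S100a8, such as Camp and Ltf, which encode neutrophil granule proteins, with 4.55 and 4.15. Whether compression made any of these differences smaller was not tested.

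S100a6, or calcyclin, also exceeded its DC level in either MDSC group. Its log2 signal was 8.40 and 8.46 for MDSC (conv.), 8.42 and 8.43 for 6G- BM-MDSC and 7.79 and 7.93 for DCs. The MDSC arrays lay within 0.06 of each other and above both DC arrays. S100a6 was 1.48-fold higher in MDSC (conv.) (log2 difference 0.57, SE 0.08; limma, adjusted p = 0.00977) and 1.48-fold higher in 6G- BM-MDSC (limma, adjusted p = 0.00928). The limma adjusted p rose to 0.0643 without MDSC (conv.) replicate 2 and, in the second comparison, to 0.0522 without 6G- BM-MDSC replicate 2.

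S100a16, a widely expressed member of the family, was also higher in MDSCs by its bright probe, but its probes disagreed. The bright probe (mm9, chr3:90346529-90346588) gave log2 signals of 1.85 and 1.86 for MDSC (conv.), 1.72 and 1.68 for 6G- BM-MDSC and 1.36 and 1.23 for DCs. The log2 difference from DCs was 0.56 in MDSC (conv.) (SE 0.08; limma, adjusted p = 0.00839) and 0.41 in 6G- BM-MDSC (SE 0.08; limma, adjusted p = 0.0194). The dim probe (chr3:90346875-90346934) was well above background on 5 of 6 arrays, with -4.96 and -4.97, -5.38 and -4.38, and -4.07 and -4.52 in the same order. It gave log2 differences of -0.67 (SE 0.35; limma over all probes, adjusted p = 0.214) and -0.59 (SE 0.35; limma over all probes, adjusted p = 0.255). With the mean of both probes, S100a16 had log2 differences of -0.055 and -0.091, which did not pass (limma, adjusted p = 0.847 and 0.737). With the bright probe, limma adjusted p rose to 0.0567 without MDSC (conv.) replicate 2, and in 6G- BM-MDSC to 0.08, 0.0717 and 0.0841 without 6G- BM-MDSC replicate 1, 6G- BM-MDSC replicate 2 and DCs replicate 2.

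S100a1, best known from heart and skeletal muscle, where it acts on calcium channels and pumps of the sarcoplasmic reticulum, was the lowest of the 10 genes in MDSCs relative to DCs. Its log2 signal was 2.16 and 1.99 for MDSC (conv.), 2.17 and 2.01 for 6G- BM-MDSC and 2.87 and 2.91 for DCs. Both DC arrays lay above all MDSC arrays. S100a1 was 1.76-fold higher in DCs than in MDSC (conv.) (log2 difference of MDSC (conv.) from DCs -0.82, SE 0.10; limma, adjusted p = 0.00552) and 1.74-fold higher in DCs than in 6G- BM-MDSC (-0.80, SE 0.10; limma, adjusted p = 0.00534). Both calls of S100a1 held when any 1 array was left out.

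S100a13, whose product assists the release of Fgf1 and Il1a, lies head to head with S100a1. Its log2 signal was 4.19 and 4.22 for MDSC (conv.), 4.32 and 4.15 for 6G- BM-MDSC and 4.43 and 4.41 for DCs. The DC arrays were the highest, and the difference did not pass in MDSC (conv.) (-0.22, SE 0.09, 95% interval -0.44 to 0.01; limma, adjusted p = 0.128) or in 6G- BM-MDSC (-0.19, SE 0.09, 95% interval -0.41 to 0.04; limma, adjusted p = 0.163). The annotated starts of both genes are separated by 104 bases (GRCm38.p6, chr3:90514331-90514434, RefSeq), shown on the strand of S100a13 because both genes are read outward from it.
S100a1 and S100a13: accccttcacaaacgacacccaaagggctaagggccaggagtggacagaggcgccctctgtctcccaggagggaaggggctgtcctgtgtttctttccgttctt
On each array, the log2 signal of S100a1 minus that of S100a13 was -2.03 and -2.23 for MDSC (conv.), -2.16 and -2.14 for 6G- BM-MDSC and -1.57 and -1.50 for DCs. The mean was -0.61 in MDSCs relative to DCs, with no overlap between MDSC and DC arrays (exact two-sided permutation test, p = 0.0667, adjusted over 2 pairs p = 0.0667, again the smallest the design allows). This pair, too, was chosen after its values were seen.

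S100a10, the annexin A2 partner that binds plasminogen at the cell surface, was lower in MDSCs by both of its probes. The brighter probe (mm9, chr3:93368437-93368496) gave log2 signals of 5.60 and 5.37 for MDSC (conv.), 5.59 and 5.56 for 6G- BM-MDSC and 6.08 and 6.11 for DCs. The other probe (chr3:93368276-93368335) gave 3.97 and 3.98, 3.72 and 3.86, and 4.58 and 4.59. By either probe, both DC arrays lay above all MDSC arrays. The log2 difference from DCs by the brighter probe was -0.61 in MDSC (conv.) (SE 0.10; limma, adjusted p = 0.0125) and -0.52 in 6G- BM-MDSC (SE 0.10; limma, adjusted p = 0.018), and by the other probe -0.61 and -0.80 (limma over all probes, adjusted p = 0.00779 and 0.00346). By the brighter probe, limma adjusted p rose to 0.0513, 0.0545 and 0.0622 in MDSC (conv.) without MDSC (conv.) replicate 2, DCs replicate 1 and DCs replicate 2. In 6G- BM-MDSC it was 0.0674 to 0.0836 without any 1 of the 4 arrays compared.

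S100a11, or calgizzarin, another annexin partner, was the only one of the 10 genes that passed in MDSC (conv.) and not in 6G- BM-MDSC. Its log2 signal was 5.90 and 5.94 for MDSC (conv.), 6.19 and 6.25 for 6G- BM-MDSC and 6.21 and 6.35 for DCs. The arrays of MDSC (conv.) were the lowest, and those of 6G- BM-MDSC and DCs overlapped. The log2 difference from DCs was -0.36 in MDSC (conv.) (SE 0.08; limma, adjusted p = 0.0332) and -0.06 in 6G- BM-MDSC (SE 0.08; limma, adjusted p = 0.595). Between both MDSC groups, S100a11 was 0.30 higher in 6G- BM-MDSC (SE 0.08), which did not pass over all genes (limma, adjusted p = 0.366, unadjusted p = 0.0166), so that both comparisons with DCs are not shown to differ. Its call in MDSC (conv.) was lost without any 1 of the 6 arrays, with limma adjusted p of 0.0586 to 0.13, and under quantile normalization (limma, adjusted p = 0.0544).

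S100a4, or metastasin, and S100a3, which is known from hair follicles, differed little between groups. The log2 signal of S100a4 was 9.03 and 9.02 for MDSC (conv.), 9.05 and 9.02 for 6G- BM-MDSC and 9.17 and 9.23 for DCs. DC arrays lay above MDSC arrays, by a mean of 0.17 in either comparison, which did not pass (SE 0.07; limma, adjusted p = 0.13 and 0.129; 95% interval -0.35 to 0.01 for each). Under quantile normalization, which gives probes of equal rank equal values, its difference was 0 in all comparisons. The log2 signal of S100a3 was -3.27 and -2.99 for MDSC (conv.), -2.80 and -2.91 for 6G- BM-MDSC and -2.95 and -2.90 for DCs. Its log2 difference from DCs was -0.20 in MDSC (conv.) (SE 0.12; limma, adjusted p = 0.265) and 0.07 in 6G- BM-MDSC (SE 0.12; limma, adjusted p = 0.655).

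Removal of Ly-6G+ cells before culture was not followed by a detectable difference in any of the 10 genes. Between 6G- BM-MDSC and MDSC (conv.), limma called 0 of 10, with 1 (S100a11) at an unadjusted p under 0.05, and the methods' t-test called 0 after adjustment, with 2 at an unadjusted p under 0.05. Over all genes, 0.00457% were higher and 0.00915% lower, which are 1 gene (Tmprss11f) and 2 genes (AK053624 and Trim15), named after their values were seen. In the lower group each was near the floor: Tmprss11f at -7.55 in MDSC (conv.), and AK053624 at -7.41 and Trim15 at -7.33 in 6G- BM-MDSC. S100b, not well above background on any array, had -7.56 and -7.62 in those groups. With only probes well above background on all arrays, 0 genes passed. The median difference of the S100 genes was 0.01 and its median size 0.06, beside 0.004 and 0.12 over all genes. The narrowest 95% interval was that of S100a4, from -0.17 to 0.19, and the widest that of S100a9, from -0.65 to 0.20. For S100a8 it ran from -0.33 to 0.29, for S100a6 from -0.22 to 0.21 and for S100a1 from -0.24 to 0.27. Ly6g, the transcript of the antigen used for the removal, had a log2 difference of -0.17 (SE 0.11; limma, adjusted p = 0.626) after the 4 days of culture.

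Of 16 other genes of the S100 family and its fused relatives, 14 were on the array and 3 were well above background. S100a2, a neighbour of S100a3, exceeded its DC level in either MDSC group. Its log2 signal was -2.66 and -2.86 for MDSC (conv.), -2.96 and -2.60 for 6G- BM-MDSC and -3.75 and -3.92 for DCs. With all MDSC arrays above both DC arrays, it was 2.11-fold higher in MDSC (conv.) (log2 difference 1.08, SE 0.16; limma, adjusted p = 0.009) and 2.08-fold higher in 6G- BM-MDSC (limma, adjusted p = 0.00897). This probe was dim, and with normexp background correction the log2 differences were 0.404 and 0.363 (limma, adjusted p = 0.0141 and 0.0193). Without MDSC (conv.) replicate 1, the call of S100a2 in that group was lost (limma, adjusted p = 0.0512). S100a5 had log2 differences of -0.18 and -0.19 (limma, adjusted p = 0.287 and 0.232) and Tchh, which encodes the hair protein trichohyalin, 0.23 and 0.60 (limma, adjusted p = 0.481 and 0.101). S100a14, S100a7a, S100b and S100g were among those not well above background on either array of any group.

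Transcription factors known to act at S100a8 or S100a9 moved in both directions. Of 12, MDSC (conv.) had 4 above and 3 below DCs (median log2 difference 0.04), where 13.4% and 15.8% of all genes were. In 6G- BM-MDSC, 5 were above and 2 below (median 0.08), where 15.0% and 17.8% of all genes were. The C/EBP factors, which drive granulocyte genes, were split. Cebpe, needed for late granule genes, was higher by 2.60 (SE 0.13) and 2.24 (limma, adjusted p = 0.000549 and 0.000772), Cebpd by 0.74 (SE 0.13) and 0.86 (limma, adjusted p = 0.0165 and 0.0102), and Cebpb by 0.70 (SE 0.15) and 0.74 (limma, adjusted p = 0.0274 and 0.0217). Cebpa had -0.29 (SE 0.07) and -0.49 (limma, adjusted p = 0.0373 and 0.00867). Gfi1, a repressor that guides neutrophil development, was higher by 3.58 (SE 0.11) and 3.21 (limma, adjusted p = 0.000208 and 0.000247). Irf8, which favours monocytes and dendritic cells over neutrophils, had -1.45 (SE 0.14) and -1.26 (limma, adjusted p = 0.00268 and 0.00379). Spi1, which encodes PU.1, had 0.34 and 0.42 (SE 0.10) and passed in 6G- BM-MDSC (limma, adjusted p = 0.0612 and 0.0309), and Stat3 had -0.42 and -0.34 (SE 0.10) and passed in MDSC (conv.) (limma, adjusted p = 0.0383 and 0.0575), but not with the mean of its probes (-0.239; limma, adjusted p = 0.094). The calls of Gfi1, Cebpe and Irf8 held when any 1 array was left out, whereas those of Cebpb, Cebpd, Spi1, Stat3 and, in MDSC (conv.), Cebpa were lost in at least 1 such fit, with limma adjusted p of at most 0.162.

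The promoters of S100a8 and S100a9 are shown because these genes encode both subunits of calprotectin and several of those factors differed between groups, and that of S100a6 as another gene that was higher in MDSCs. The sequences are the 250 bases before the annotated start (RefSeq, GRCm38.p6), and a window was given for 9 of the 10 genes. Capitals mark TTGCNNAA (a C/EBP motif), GAGGAA (a PU.1 motif) and TATAAA, searched on both strands.
S100a8 (chr3:90668821-90669070, plus strand): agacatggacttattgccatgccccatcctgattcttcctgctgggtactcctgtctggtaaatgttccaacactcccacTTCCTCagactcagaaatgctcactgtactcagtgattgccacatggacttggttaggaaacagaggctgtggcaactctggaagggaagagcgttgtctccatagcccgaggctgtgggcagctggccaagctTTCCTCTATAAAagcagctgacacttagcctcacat
S100a9 (chr3:90695722-90695971, minus strand): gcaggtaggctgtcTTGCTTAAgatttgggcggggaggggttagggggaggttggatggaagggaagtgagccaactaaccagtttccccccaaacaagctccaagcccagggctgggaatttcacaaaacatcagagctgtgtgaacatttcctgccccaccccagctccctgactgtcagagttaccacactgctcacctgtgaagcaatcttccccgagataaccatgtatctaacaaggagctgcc
S100a6 (chr3:90612644-90612893, plus strand): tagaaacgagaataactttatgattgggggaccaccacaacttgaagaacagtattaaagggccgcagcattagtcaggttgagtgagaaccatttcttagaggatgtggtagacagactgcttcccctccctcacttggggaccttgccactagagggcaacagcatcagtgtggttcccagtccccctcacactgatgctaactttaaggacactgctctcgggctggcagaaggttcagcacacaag
S100a8 held GAGGAA at 170 and 36 bases before the start, both on the other strand, and TATAAA at 30 bases before it, where the latter pair of matches adjoin. S100a9 held TTGCNNAA at 236 bases before the start, and its TATAAA began with base 1 of the annotated transcript, outside the letters shown. S100a6 held none of them. In windows of 300 bases, which include the first 50 of the transcript, TTGCNNAA occurred in 10.8%, GAGGAA in 28.3% and TATAAA in 13.6% of 32851 windows of all genes, and in 1, 5 and 4 of the 13 windows of the 9 S100 genes, some of which have several starts. S100a1 and S100a13 held none of the 3, and a match or its absence describes these letters alone.

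Receptors and adaptors for S100 proteins outside the cell moved in both directions. Of 13 genes, all tested, MDSC (conv.) had 1 above and 2 below DCs and 6G- BM-MDSC had 3 above and 3 below, with median log2 differences of 0.00 and 0.15, where 13.4% and 15.0% of all genes were higher and 15.8% and 17.8% lower. Tlr4, the receptor of calprotectin, had 0.33 and 0.40 (SE 0.11), which did not pass (limma, adjusted p = 0.0917 and 0.0519). Among the genes that signal from it, Ticam1 and Traf6 were lower. Ticam1 had -0.46 (SE 0.07) and -0.51 (limma, adjusted p = 0.0117 and 0.00808) and Traf6 had -0.35 (SE 0.09) and -0.34 (limma, adjusted p = 0.0381 for each). The adaptor Myd88 had -0.03 and -0.04 (SE 0.09; limma, adjusted p = 0.83 and 0.734), and Irak1 and Irak4 did not pass either. Cd33, a sialic acid receptor of myeloid cells that binds S100a9, was higher by 0.74 (SE 0.10) and 0.63 (limma, adjusted p = 0.0068 and 0.00989). Ager, which encodes RAGE, had -0.18 (SE 0.09) and -0.45 (limma, adjusted p = 0.19 and 0.0215), and with the mean of its probes 0.388 and 0.266, the opposite direction, which passed in MDSC (conv.) (limma, adjusted p = 0.0398 and 0.0939). The scavenger receptor Cd36 had 0.00 and 0.59 (SE 0.10; limma, adjusted p = 0.986 and 0.0118), and the activation antigen Cd69 had 0.09 and 0.42 (SE 0.10; limma, adjusted p = 0.547 and 0.0323). The differences of Cd36 and Cd69 between both MDSC groups were 0.58 and 0.33 and did not pass (limma, adjusted p = 0.245 and 0.381). With the mean of their probes, Traf6 had -0.173 and -0.101 and Cd69 had 0.156 in 6G- BM-MDSC, which did not pass (limma, adjusted p = 0.167, 0.37 and 0.228), and with normexp Cd36 had 0.291 there. Leaving out 1 array ended at least 1 call of each of the receptor and adaptor genes called here, with limma adjusted p of at most 0.158.

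Of 19 tested genes for intracellular and export partners, MDSC (conv.) had 8 above and 4 below DCs, where 13.4% and 15.8% of all genes were. In 6G- BM-MDSC, 7 were above and 4 below, where 15.0% and 17.8% of all genes were. The median log2 differences of the partner genes were 0.13 and 0.04. Of the NADPH oxidase, to which calprotectin delivers arachidonic acid, the membrane subunits Cybb and Cyba were higher, Cybb by 1.46 (SE 0.08) and 1.43 (limma, adjusted p = 0.000585 for each) and Cyba by 0.44 (SE 0.07) in each (limma, adjusted p = 0.013 and 0.0121). Annexins differed among themselves. Anxa2, the partner of S100a10, had -0.04 in each comparison (SE 0.11; limma, adjusted p = 0.782 and 0.798), Anxa11, which binds S100a6, was higher by 1.28 (SE 0.08) and 0.94 (limma, adjusted p = 0.000784 and 0.0017), and Anxa6 had -1.02 (SE 0.09) in each (limma, adjusted p = 0.00192 and 0.00187). Ahnak, a large scaffold that binds the S100a10 and Anxa2 complex, had -0.47 (SE 0.08) and -0.59 (limma, adjusted p = 0.0123 and 0.00596), and Plaur, the urokinase receptor, was higher by 0.77 (SE 0.10) and 0.82 (limma, adjusted p = 0.00625 and 0.00488). The cargoes of S100a13 went apart: Fgf1 had -1.63 (SE 0.24) and -1.30 (limma, adjusted p = 0.0094 and 0.0163), and Il1a was higher by 0.66 (SE 0.11) and 1.77 (limma, adjusted p = 0.0133 and 0.000881). With normexp, Il1a, a dim probe, had 0.131 and 0.761 (limma, adjusted p = 0.252 and 0.000601). When 1 array was left out, calls of Ahnak, Cyba and Il1a in MDSC (conv.) and of Cyba and Fgf1 in 6G- BM-MDSC were lost in at least 1 fit, with limma adjusted p of at most 0.0774, and those of Cybb, Anxa11, Anxa6 and Plaur held.

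**Figure D4:**
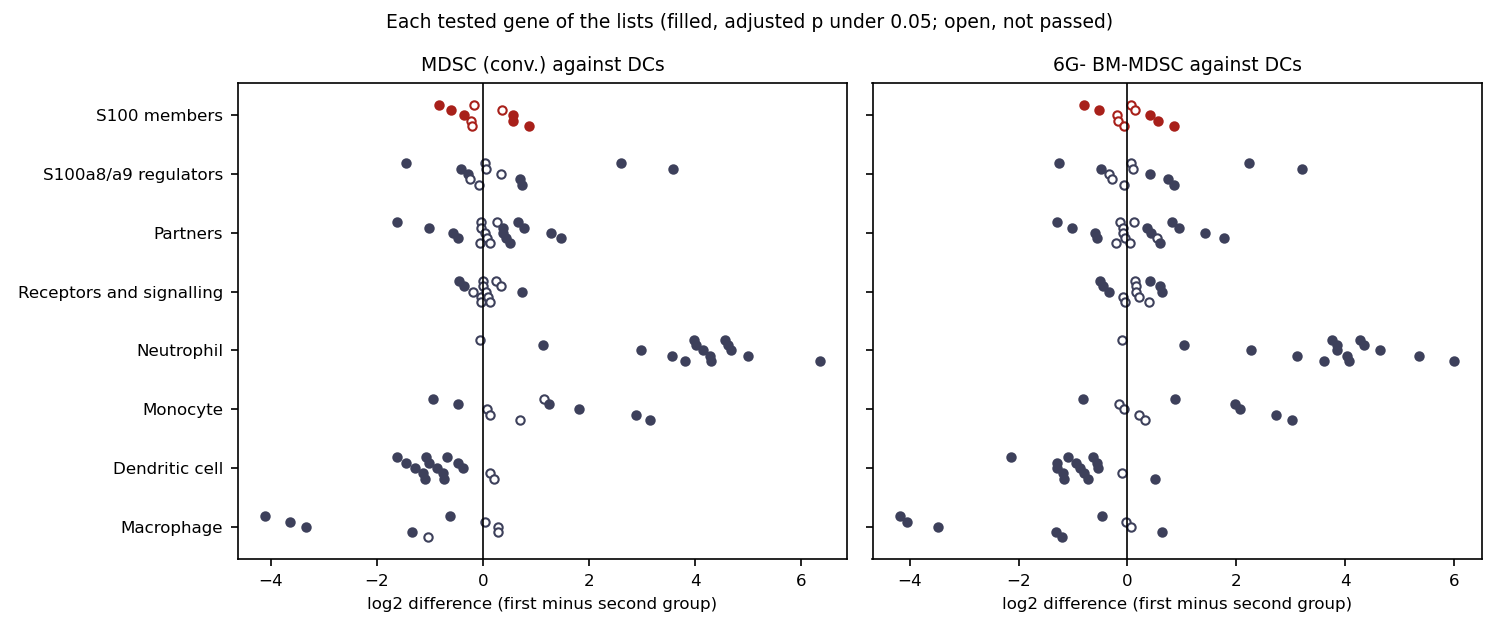
Log2 difference from DCs (x axes) of every tested gene in each list (rows), for MDSC (conv.) on the left and 6G- BM-MDSC on the right. Filled dots passed the test and open dots did not. The S100 genes lie between -0.82 and 0.87, whereas the neutrophil markers have medians of 4.15 and 3.85.

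The genes whose 6 array values were most like those of each S100 gene that passed against DCs in both comparisons were found by the root mean square difference after subtraction of each gene's own mean, over 21849 genes. For S100a8 they were Zfp982, Nt5c3b and Kcnrg (0.039, 0.061 and 0.067 on the log2 scale), and for S100a6 Wdr5, Srd5a3 and Man2a1 (0.030 to 0.035). For S100a16 they were B230216N24Rik, Cenpu and Kif20b (0.017 to 0.024), for S100a1 Oraov1 and 5730409E04Rik (0.034 and 0.035), and for S100a10 Cpxm1, Supt4a and Zbtb20 (0.026 to 0.030). None of the genes named here is an S100 gene.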

How the data were processed

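RNA of 6 samples (3 groups of 2) was labelled with Cy3 and hybridised to 1-colour Agilent arrays on 1 slide, read in 1 scan. The intensity values deposited by the authors were background-subtracted and detrended within each array by Feature Extraction (10.5.1.1 per the submitters' processing notes, 10.7.3.1 per the file headers), with no scaling between arrays, and the deposited table of intensity values holds the same signals rounded. Here, log2 intensity minus the 75th percentile of each array (560.2 to 633.3 intensity units) was used, without control spots and spots marked as outliers. A probe entered the test if 1 group or more had it well above background on both of its arrays (33481 of 56605, 59.1%), and the brightest probe stood for its gene (21859 genes). Gene names were those of the array, of which 1535 probes were renamed through RefSeq accessions (32994 probes matched, 58.3%). Groups were compared with limma 3.58.1 in R 4.3.3 (lmFit and eBayes on all 6 arrays, 3 residual and 1.96 prior degrees of freedom, Benjamini-Hochberg over all genes, threshold 0.05). The number of arrays limits the precision.

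The S100 genes and the gene lists were chosen with earlier results of these data known. From the lists of other S100 genes, receptors, partners and transcription factors, all tested S100 genes and up to 8 genes per list by smallest p among those that passed at least 1 comparison were named. Tlr4, Myd88, Irak1, Irak4, Anxa2, Ly6g, Mpo, Csf3r, Camp, Ltf, C1qa, C1qb and C1qc were named outside this rule, after their values were seen. Alternatives were quantile normalization, normexp background correction (offset 50), other filters, other gene summaries, marked spots kept, the deposited table, fewer arrays, a replicate block, an intensity trend, the methods' t-test, a 2-fold threshold and leaving out each array. The test was tried on simulated data. Sequences came from the array files and RefSeq (GRCm38.p6). Some genes that the rules would name are not reported here.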

Additional observations from a re-analysis of the deposited data

How the results depend on the processing

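The S100 genes called against DCs (3 higher and 3 lower for MDSC (conv.), 3 and 2 for 6G- BM-MDSC) became 0 in each direction with the methods' t-test after Benjamini-Hochberg adjustment and with a threshold of 2-fold. At an unadjusted p under 0.05 by that t-test were 9 and 6 of the 10, beside 7074 and 7488 of all 21859 genes. Leaving out 1 array gave 0 to 3 higher and 1 to 2 lower in MDSC (conv.), and 1 to 3 higher and 1 to 2 lower in 6G- BM-MDSC. The lowest counts came without MDSC (conv.) replicate 2 (0 higher, 1 lower) and without 6G- BM-MDSC replicate 2 (1 higher, 1 lower), and the lone array was then assumed to vary like the other groups. When probes of 1 gene were averaged, S100a16 had -0.055 and -0.091 and Ager had 0.388 and 0.266. Between both MDSC groups, 0 S100 genes passed under every alternative run. With the replicate number as a block, the counts of S100 genes stayed at 3 and 3, 3 and 2, and 0 and 0, and over all genes calls were 2784 and 3177 for MDSC (conv.), 3142 and 3714 for 6G- BM-MDSC, and 1 and 2 between both. The deviations of same-numbered arrays correlated at 0.114, 0.125 and 0.042, so that the numbers were not taken to pair the samples. With normexp, the difference of S100a8 minus S100a9 between MDSCs and DCs was 0.695. Over all genes, calls against DCs (2923 higher and 3457 lower, 3278 and 3889) became 2916 and 8700, and 3198 and 8752, with no filter on dim probes, 1163 and 825, and 1171 and 1001, at 2-fold, and 4 and 3, and 41 and 25, with the methods' t-test. Probe-wise tests gave 4480 and 4799, and 5014 and 5409. Leaving out 1 array gave 1381 to 2355 and 1269 to 2924 in MDSC (conv.), and 1718 to 2681 and 1924 to 3178 in 6G- BM-MDSC. Between both MDSC groups, 11 were higher and 53 lower with an intensity trend, 2 and 7 with normexp, 0 and 0 with probes above background on all arrays, and 1 to 66 and 1 to 76 without 1 array. The cause of these changes was not tested.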

Other observations

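Of 60 other protein-coding genes whose start lies within the span of the 10 S100 genes on chromosome 3, 17 were well above background. Against DCs, 1 was higher and 0 lower in MDSC (conv.), where 13.4% and 15.8% of all genes were, and 1 was higher and 1 lower in 6G- BM-MDSC, where 15.0% and 17.8% were (limma, adjusted p under 0.05). At an unadjusted p under 0.05 by limma were 1 and 5 of the 17, beside 9269 and 10049 of all 21859 genes. The gene that was higher in both comparisons was S100a2, itself of the S100 family. The median log2 differences of the 17 genes were -0.15 and -0.29, beside -0.19 and 0.01 for the 10 S100 genes, and the difference between both sets was not tested. Between both MDSC groups, limma called 0 of the 17, with 0 at an unadjusted p under 0.05 and a median log2 difference of -0.06. Of all 21859 genes, limma called 3 there, with 2357 at an unadjusted p under 0.05.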
